A study of Mus musculus with 9 samples.

Results

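The 3 untreated libraries of a 9-library RNA sequencing series on primary cultured mouse kidney cells were described for what the cultures consist of before any stimulus. They were chosen by label alone, as the libraries of the PBS control group, and no treatment was compared. Kidneys of wild-type mice were cut up and digested with Liberase and DNase, strained, freed of red cells by lysis and seeded in DMEM with serum. The medium was changed after 48 h, culture went on for 3 days, the cells were trypsinised and replated for 24 h, and RNA was taken 6 h after PBS was added. All 3 libraries share this history, the labels used here give no strain, sex or age, and they do not say whether the replicates are separate mice or separate wells. The spread between libraries may therefore be technical, and no uncultured kidney was measured, so a gene that is absent here cannot be shown to have been lost in culture.

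The nephron is a chain of epithelial segments, each built around its own transporters. The proximal tubule takes back most of the filtered solute through brush border carriers and makes glucose, the thick ascending limb and distal tubule recover salt, and collecting duct principal and intercalated cells set water, sodium and acid excretion. Podocytes and parietal cells form the glomerular epithelium, and fibroblasts, pericytes, endothelium and resident macrophages lie between the tubules. Tubular cells in culture on plastic are known to spread, divide and lose segment-specific transporters while keeping junctions and keratins, a shift called dedifferentiation.

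Levels are given as TPM, which are counts per kilobase of exon scaled to the same fixed total in each library, so that genes can be compared with each other. The values of a gene are listed for PBS replicates 1, 2 and 3 in that order, and means carry the SD of these 3 libraries. A gene is called expressed at 1 TPM or more in each of the 3 libraries, which is about 7.43 to 9.67 counts for a transcript of 2 kb at these depths of 14194295, 17911146 and 18272326 counts. It is called at the floor when it has at most 3 counts in every library, and low when it is neither. By this rule 13781 of 57010 genes (24.2%) were expressed, and 11881 of 21816 protein-coding genes of the nuclear genome (54.5%). The median protein-coding gene stood at 3.25 TPM. The median coefficient of variation between libraries was 6.24% over all expressed genes, 14.1% for those between 1 and 10 TPM and 3.46% above 100 TPM. In 556 entries of 27 gene lists, 333 were expressed and 107 were at the floor. Counts of expressed members in a list or family are to be read beside the 54.5% of all protein-coding nuclear genes. The lists were written with earlier results of these data known, so such a count is a description and not a test. A total for a list depends on how many and which genes it holds, so totals are compared with each library's own value and not as cell numbers. In bulk RNA, fewer cells of a type and less RNA per cell cannot be told apart.

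**Figure D1:**
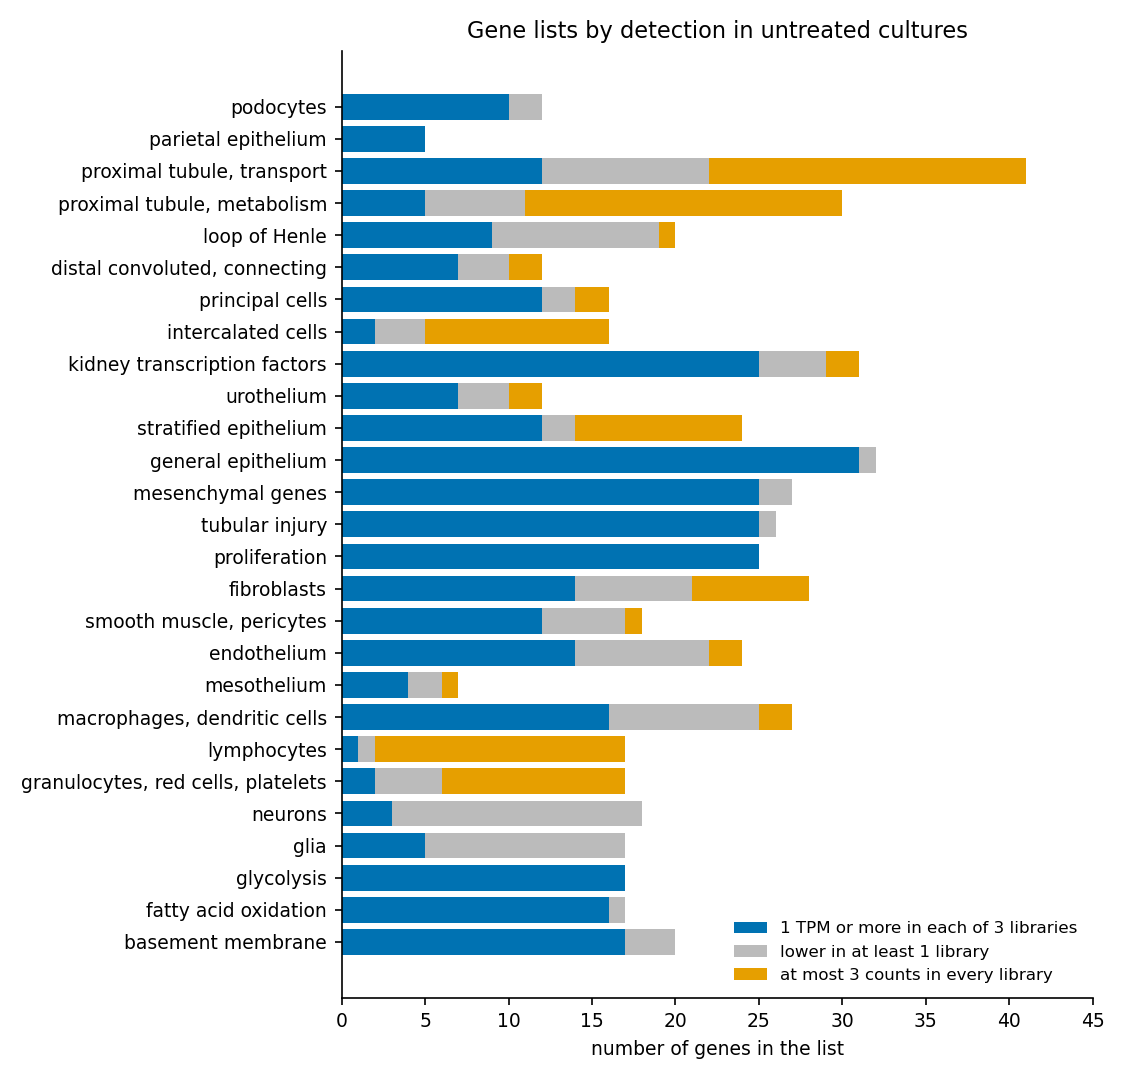
Number of genes in each of the 27 lists (horizontal axis) that were expressed at 1 TPM or more in each of the 3 PBS libraries (blue), were lower in at least 1 library (grey), or had at most 3 counts in every library (orange). The general epithelium, proliferation and glycolysis bars are almost or wholly blue, and orange takes up much of the proximal tubule, intercalated cell and lymphocyte bars.

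Among protein-coding genes of the nuclear genome, ranked without those encoded in mitochondria, the highest was Spp1, which encodes the secreted matrix protein osteopontin, with 10616, 10869.9 and 10263 TPM. A share of 18.8% of its exon length overlaps another gene, so some of its reads were not counted. Other high levels were those of the translation factor Eef1a1 at 8261 ± 74.6 TPM and the cytoskeletal actin Actb at 6198 ± 624 TPM. Plau, the urokinase that activates plasminogen, stood at 3956 ± 78.4 TPM. The extracellular chaperone Clu reached 4861 ± 173 TPM, the matrix glycoprotein Thbs1 4566 ± 34.5 TPM and the integrin beta chain Itgb1 4556 ± 95.9 TPM. The values of Thbs1 and Itgb1 overlapped between libraries, so the order of that pair is not resolved. The chaperone Hsp90ab1 (3778 TPM), the actin-binding proteins Tmsb4x (3671 TPM) and Dstn (3133 TPM) and the calcium-binding S100a11 (3671 TPM) followed. After them came the keratins Krt18 and Krt8, the surface proteins Cd24a (2617 TPM) and Ly6a (2433 TPM), the tropomyosin Tpm1 (2441 TPM), Ptma (2385 TPM), Tceal9 (2215 TPM) and the matricellular growth factor Ccn2 (2163 TPM). Another gene shares 24.4% of the exon length of Ccn2. Divided by the unshared length alone Ccn2 was at 2755 TPM, so its place in this order is uncertain. Of the 100 highest protein-coding genes 22 encoded ribosomal proteins. Another 8 were on the mesenchymal list, 4 on the tubular injury list and 4 on the general epithelium list. The lists of proximal tubule, loop of Henle, distal tubule, collecting duct and podocyte genes had 0 members among those 100.

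The 8 markers followed through the cultures covered a wide range, with the simple keratins at the top and the macrophage receptor at the bottom. Krt18 (ENSMUSG00000023043, chromosome 15, 101936615 to 101940462, GRCm39), the acidic keratin of simple epithelia, was at 2783, 2779.6 and 2787 TPM. Its partner Krt8 (ENSMUSG00000049382, chromosome 15, 101905133 to 101912917) was at 2725, 2614 and 2851 TPM. The ratio of Krt8 to Krt18 was 0.981 ± 0.0412, so the members of this obligate filament pair stood at equal levels within the spread. Both ranked among the 15 highest protein-coding genes, at positions 14 and 15.

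Acta2 (ENSMUSG00000035783, chromosome 19, 34218490 to 34232990), the smooth muscle actin of contractile cells, stood at 969, 1031 and 1137 TPM. Cldn1 (ENSMUSG00000022512, chromosome 16, 26175392 to 26190591), a tight junction claudin that marks the parietal epithelium of Bowman's capsule, was at 413, 402 and 410.0 TPM. Vim (ENSMUSG00000026728, chromosome 2, 13578738 to 13587637), the intermediate filament of mesenchymal and of dedifferentiated tubular cells, was at 129, 128 and 128 TPM. Vim was present in every library at nearly the same level, but at rank 1344 of the protein-coding genes, and its ratio to Krt18 was 0.0461 ± 0.000141. Pax8 (ENSMUSG00000026976, chromosome 2, 24310572 to 24365611), the transcription factor that specifies renal epithelium, stood at 71.4, 77.5 and 72.9 TPM. Col1a2 (ENSMUSG00000029661, chromosome 6, 4504814 to 4541544), a fibrillar collagen chain of fibroblasts, was at 24.0, 24.4 and 24.9 TPM. Csf1r (ENSMUSG00000024621), the growth factor receptor of macrophages, was at 8.53, 8.96 and 10.4 TPM, with 15.1% of its exon length shared with another gene. No neighbours in this order overlapped between libraries except the keratin pair, and Krt18 exceeded Col1a2 114 ± 1.94-fold and Csf1r 302 ± 29.9-fold.

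**Figure D2:**
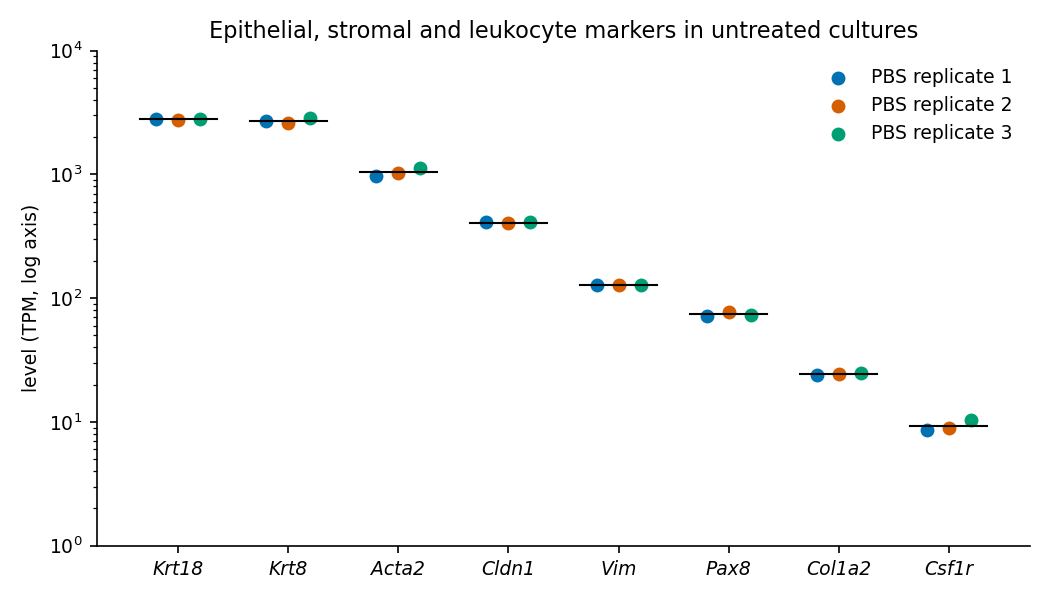
Level in TPM (log axis) of the 8 markers in each PBS library (points; blue, orange and green for replicates 1, 2 and 3), with the mean of 3 as a line. Krt18 and Krt8 lie near 2783 TPM, Csf1r near 9.29, and the 3 points of each gene lie close together.

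The general epithelial list, written with earlier results of these data known, was expressed nearly in full. Of the 32 genes on that list 31 were expressed, against 54.5% of all protein-coding nuclear genes, 30 of them at 10 TPM or more, with a list median of 131 TPM. Adherens junction cadherin Cdh1 was at 885, 901 and 891 TPM and the epithelial adhesion molecule Epcam at 753, 732 and 713 TPM. Kidney-specific cadherin Cdh16 was at 357, 369.7 and 373 TPM. These 3 adhesion genes varied little and did not overlap each other. The tight junction claudin Cldn4 led the claudins at 1876, 1784 and 2044 TPM, and the ductal keratins Krt19 and Krt7 reached 624 ± 11.7 TPM and 525 ± 19.4 TPM. Ovol1, an epithelial transcription factor, was the single low member at 0.772, 0.968 and 1.25 TPM.

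Few keratin genes were expressed. Of 49 keratin genes whose symbol ends in a number, which leaves out Krt6a, 10 were expressed and 30 were at the floor. Of all protein-coding nuclear genes 54.5% were expressed. The 6 highest were Krt18, Krt8, Krt19, Krt7, Krt20 (137 ± 8.26 TPM) and Krt17 (117 ± 15.8 TPM), which are keratins of simple, ductal and transitional epithelia except for Krt17, a stress-induced keratin of stratified epithelia and skin appendages. Of 23 claudin genes 10 were expressed, against the same 54.5%. The 6 highest were Cldn4, Cldn1, Cldn7 (291 ± 26.9 TPM), Cldn12 (179.8 ± 6.22 TPM), Cldn3 (149 ± 19.1 TPM) and Cldn6 (104 ± 5.77 TPM). Cldn2, the leaky pore claudin of the proximal tubule, was at 1.54, 1.33 and 0.995 TPM and was low by the rule, because replicate 3 fell just under 1 TPM. Of 11 aquaporin genes 2 were expressed, against the same 54.5%.

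The transcription factors of kidney lineage were largely present, with 25 of 31 expressed, against 54.5% of all protein-coding nuclear genes. The list had a median of 23.1 TPM and a summed level of 1209 ± 24.7 TPM. Hoxb7, which marks the ureteric bud and its descendants, stood at 156, 160.1 and 135 TPM, and the ureteric and nephron homeobox factor Emx2 at 136, 128 and 124 TPM. Hoxb7 in replicate 3 lay within the range of Emx2. Hoxd8 (98.9 ± 3.52 TPM) and the epithelial ETS factor Elf3 (78.2 ± 6.01 TPM) came next, followed by Pax8. Pax2, the paralogue of Pax8 in renal development, was at 33.9, 34.1 and 33.8 TPM, and the ratio of Pax8 to Pax2 was 2.18 ± 0.0833.

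Of the 6 regulators that were not expressed, 5 act mainly in the developing kidney and 1 in a mature segment. Hnf4a, the nuclear receptor that drives proximal tubule differentiation, had 3, 0 and 1 counts and was at the floor. Its relative Hnf4g was at 1.72, 1.64 and 1.08 TPM, just above the level called expressed. Among the developmental factors, Six2, which keeps nephron progenitors undifferentiated, had 3, 2 and 8 counts, Osr2 had 2, 3 and 2 counts and Eya1 0, 4 and 10 counts. Hoxa11 and Hoxd11 stood near 1 TPM, at 1.88, 1.11 and 0.633 TPM and 1.21, 0.902 and 1.03 TPM.

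**Figure D3:**
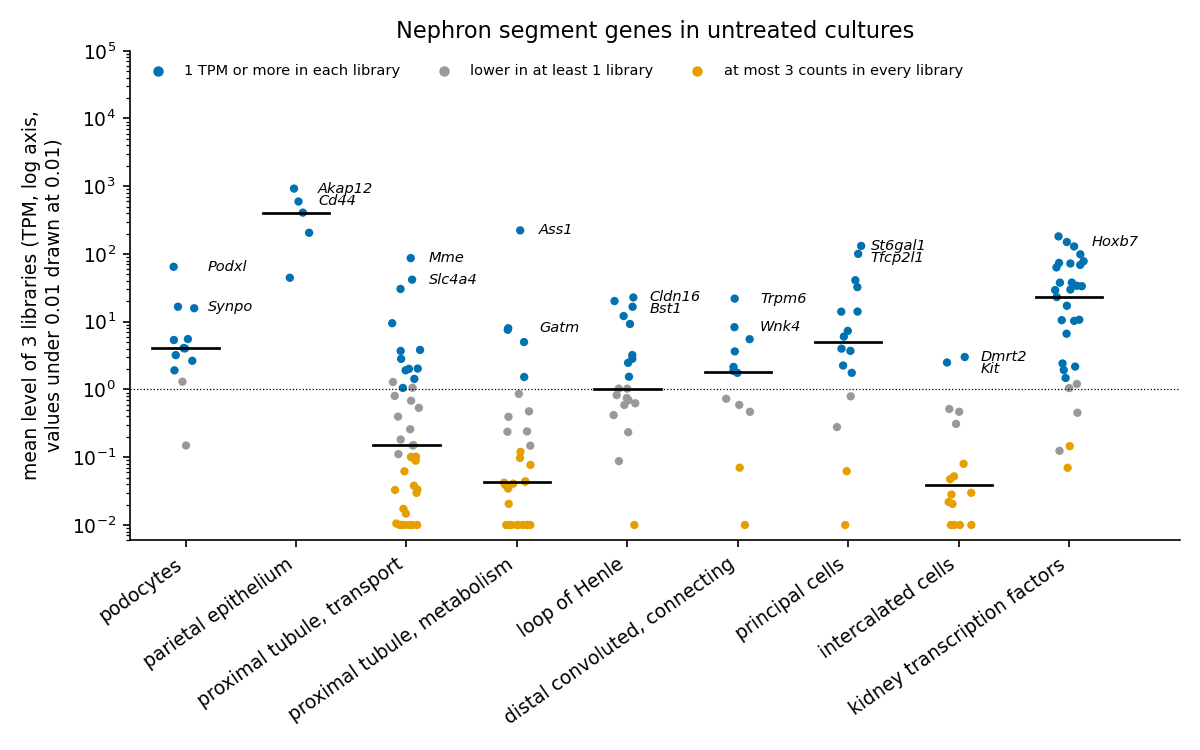
Mean level of 3 libraries in TPM (log axis; values under 0.01 drawn at 0.01) of every gene in 9 nephron lists. Blue points reached 1 TPM in each library, grey points were lower in at least 1, orange points had at most 3 counts in every library, bars are list medians, the dotted line is 1 TPM, and up to 2 of the highest genes of a list are named. The proximal tubule and intercalated cell medians lie near the bottom of the plot, at 0.151 TPM or less, and the median of the kidney transcription factors lies at 23.1 TPM.

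Most effector genes of the proximal tubule were not expressed. Of the 41 brush border and transport genes 12 (29.3%) were expressed, 10 were low and 19 were at the floor. Of the 30 metabolic genes 5 (16.7%) were expressed and 19 were at the floor. The share of all protein-coding nuclear genes that were expressed was 54.5%. The medians of the 2 lists were 0.151 and 0.0438 TPM. The sodium-phosphate cotransporter Slc34a1 had 0, 0 and 1 counts and the sodium-glucose cotransporter Slc5a2 2, 0 and 0 counts. The endocytic receptors Lrp2 (megalin) and Cubn (cubilin), which take up filtered protein, were near the detection level at 2.21, 1.61 and 1.94 TPM and 2.29, 2.08 and 1.75 TPM. The values of this receptor pair overlapped.

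Within the brush border and transport list, the 4 highest genes were Mme, Slc4a4, Ggt1 and Enpep. Mme, the peptidase neprilysin, was at 86.5, 87.3 and 87.2 TPM, 46.1 ± 7.68-fold above Lrp2. Slc4a4, the basolateral sodium bicarbonate cotransporter, was at 42.5, 41.4 and 41.5 TPM, Ggt1, which cleaves glutathione, at 30.5, 29.5 and 31.5 TPM, and the aminopeptidase Enpep at 10.2, 9.19 and 9.10 TPM. All 4 were far above Lrp2 and Cubn in every library. The amino acid transporter subunit Slc7a7 was at 3.84 ± 0.689 TPM and the water channel Aqp1 at 3.71 ± 0.849 TPM.

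Transcripts of gluconeogenesis and of most other metabolic tasks of the proximal tubule were at the floor. Pck1, the rate-limiting enzyme of gluconeogenesis, had 0, 1 and 0 counts, and Fbp1 and Miox had 0 counts in all 3 libraries. A count of 0 limits the level only by depth, to that of 3 counts. Ass1, which makes argininosuccinate for arginine synthesis, stood apart at 222, 226 and 221 TPM, and it made up 89.9% of the list's total. Gatm, the first enzyme of creatine synthesis, was at 8.03 ± 0.0891 TPM, and Ass1 stood 27.8 ± 0.225-fold above it. Chdh, which oxidises choline, and Ehhadh, a peroxisomal fatty acid enzyme, were at 7.61 ± 0.324 TPM and 5.02 ± 0.423 TPM.

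A motif search in the promoters of proximal genes was planned, and only its HNF4 part is reported here. RefSeq promoters of build GRCm38.p6, from 250 bases before to 50 bases after the start, were found for 58 of 71 proximal genes. The HNF4 motif CAAAGTCCA, sought on both strands, stood in 1 of these 58 (1.72%) and in 0.555% of all 27025 genes with a promoter. It was in 0 of the 17 expressed and 1 of the 41 other proximal genes. That gene was Slc3a1, a subunit of the cystine transporter, with 11, 10 and 2 counts. The 50 bases around the match are given 5′ to 3′ on the gene's strand, with the matched letters in capitals.
Slc3a1, chr17:85028288-85028337, plus strand: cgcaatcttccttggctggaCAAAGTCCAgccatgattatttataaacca
A match is a description of letters and says nothing of binding.

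In the loop of Henle list 9 of 20 genes (45.0%) were expressed, against 54.5% of all protein-coding nuclear genes, with 10 low and 1 at the floor. Umod, the uromodulin gene, highly transcribed in the thick ascending limb of the intact kidney, had 1, 4 and 4 counts, with 19.5% of its exon length shared with another gene. Slc12a1, the sodium-potassium-chloride cotransporter blocked by loop diuretics, was at 0.420, 0.989 and 0.682 TPM, and the potassium channel Kcnj1 at 0.646, 1.01 and 1.43 TPM. Among the claudin genes on this list, Cldn16 and Cldn19 were higher and others were not. Cldn10 was low at 0.623, 0.896 and 0.719 TPM, and Cldn14 had 0 counts in every library. Cldn16 was at 24.3, 20.5 and 23.6 TPM and Cldn19, which partners it in magnesium reabsorption, at 16.2, 18.0 and 15.8 TPM. The ranges of Cldn16 and Cldn19 did not overlap. The ectoenzyme gene Bst1 stood at 20.2 ± 1.95 TPM and the phosphatase inhibitor Ppp1r1a at 9.27 ± 0.594 TPM.

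In the distal convoluted and connecting tubule list 7 of 12 genes (58.3%) were expressed, near the 54.5% of all protein-coding nuclear genes. The thiazide-sensitive cotransporter Slc12a3 was low at 0.799, 0.702 and 0.688 TPM. Trpm6, the magnesium channel of the same segment, was the highest member at 21.97, 23.4 and 20.5 TPM and made up 46.6% of the list's total. The kinase Wnk4, which regulates Slc12a3, was at 7.07, 8.29 and 9.58 TPM and the calcium-binding S100g at 6.17, 3.96 and 6.46 TPM. Calb1, the calbindin of the connecting tubule, had 4, 18 and 18 counts, and it was higher in replicates 2 and 3, the libraries with brain transcripts. Calb1 is also a neuronal gene, and the part of brain RNA in its counts was not tested. Trpv5, the apical calcium channel, had 1, 0 and 2 counts.

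In the list of collecting duct principal cells 12 of 16 genes (75.0%) were expressed, against 54.5% of all protein-coding nuclear genes. The list's total was 359.9 ± 6.21 TPM. Within the list the transcription factors and sodium channel were present and the water channel Aqp2 was not. The sialyltransferase St6gal1 was at 135, 129 and 130.4 TPM and the collecting duct regulator Tfcp2l1 at 103, 98.9 and 99.5 TPM. Gata3, a factor of the ureteric lineage, was at 34.4, 30.8 and 32.1 TPM, and Hsd11b2, which protects the mineralocorticoid receptor from cortisol and corticosterone, at 13.5, 14.3 and 14.6 TPM. The 3 subunits of the epithelial sodium channel were all expressed but unequal. Scnn1a was at 39.9, 41.9 and 41.4 TPM, 5.61 ± 0.303-fold above Scnn1b and 6.98 ± 1.33-fold above Scnn1g. The values of Scnn1b (7.46, 7.05 and 7.46 TPM) and Scnn1g (4.77, 6.07 and 7.26 TPM) overlapped.

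Aqp2, the vasopressin-regulated water channel that defines principal cells, had 0 counts in every library (ENSMUSG00000023013, chromosome 15, 99476936 to 99482428). At 3 counts it would stand at 0.569, 0.446 and 0.437 TPM, the limit these depths allow. Fxyd4, a subunit of the sodium pump in this segment, was at 0.138, 0.971 and 1.27 TPM. The vasopressin receptor gene Avpr2 had 2, 0 and 0 counts, but 81.3% of its exon length is shared with another gene and its level is uncertain. Cldn8, a distal claudin, was higher in replicate 3 than in the others, at 11.7, 11.8 and 18.8 TPM.

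Most intercalated cell genes were at the floor. Of 16 genes 2 (12.5%) were expressed, against 54.5% of all protein-coding nuclear genes, and 11 were at the floor. The list's total was 7.10 ± 0.615 TPM. The master regulator Foxi1 had 0, 1 and 0 counts. The proton pump subunit Atp6v1g3 had 1, 0 and 0 counts, the anion exchanger Slc4a1 0, 0 and 2 counts and pendrin, Slc26a4, 2, 0 and 1 counts. The 2 expressed members, the transcription factor Dmrt2 (2.88, 3.07 and 3.10 TPM) and the receptor tyrosine kinase Kit (2.11, 2.91 and 2.48 TPM), are not transporters, and Kit is also a gene of mast and other cells. Cpa3, a mast cell protease, had 0 counts in every library.

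Glomerular epithelium was represented unevenly. In the podocyte list 10 of 12 genes were expressed, against 54.5% of all protein-coding nuclear genes. The list median was only 4.06 TPM, close to the 3.25 TPM of all protein-coding nuclear genes. Podxl, the podocyte surface sialomucin that endothelium and other epithelia also carry, was at 60.4, 67.2 and 66.6 TPM and made up 51.6% of the total. Nphs1 (nephrin), the slit diaphragm protein, had 4, 5 and 4 counts, with 11.8% of its exon length shared. Synpo, which organises actin in foot processes, was at 16.9, 17.7 and 15.4 TPM, and the podocyte transcription factor Wt1 at 3.00, 3.41 and 3.24 TPM.

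All 5 parietal epithelium genes were expressed, against 54.5% of all protein-coding nuclear genes, and at high levels. Akap12, a scaffold protein, was at 975, 936 and 858 TPM and the hyaluronan receptor Cd44 at 593, 591 and 603 TPM. Slc4a11, a transporter of the bicarbonate carrier family, was at 213, 199 and 205 TPM and the adhesion molecule Ncam1 at 41.5, 46.1 and 46.1 TPM. Akap12 and Cd44 are also induced in many spread cells, and Cd44 in injured tubules, and which cells the transcripts came from was not tested.

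The mesenchymal list was expressed nearly in full, but its regulators were far lower than its cytoskeletal and matrix genes. Of 27 genes 25 (92.6%) were expressed, against 54.5% of all protein-coding nuclear genes, and 17 were at 100 TPM or more. The list's total was 24396, 24173 and 24746 TPM. The total for tubular injury genes was 23826, 24315 and 23367 TPM. The library values of the 2 totals overlapped, but Spp1 alone made up 44.4% of the injury total. Without the highest gene of each list the totals were 19491, 19265 and 19537 TPM for mesenchymal genes. For injury genes they were 13211, 13445 and 13104 TPM, so these values did not overlap. Besides Thbs1, Tpm1 and Ccn2, the calcium-binding S100a6 was at 1921 ± 41.9 TPM and the lectin Lgals1 at 1734 ± 14.9 TPM. Fibronectin, Fn1, was at 1778, 1664 and 1716 TPM. Cdh2 (N-cadherin), which proximal tubule cells carry normally, was at 210.3, 209 and 193 TPM, and Cdh1 stood 4.38 ± 0.210-fold above it. S100a4, often used as a fibroblast marker, was at 3.69, 2.89 and 3.90 TPM, with 51.7% of its exon length shared, and its level is uncertain.

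The transcription factors that drive epithelial-mesenchymal transition were all under 10 TPM. Twist1 was at 5.76 ± 1.21 TPM, Snai2 at 4.04 ± 0.544 TPM, Zeb1 at 3.63 ± 0.462 TPM and Zeb2 at 3.63 ± 0.298 TPM. Snai1 (0.997, 0.651 and 1.02 TPM) and Twist2 were the 2 low members of the list. Keratins, Cdh1 and Epcam stood beside fibronectin, vimentin and N-cadherin in the same libraries. Whether the same cells hold both sets cannot be told apart from a mixture in bulk RNA.

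Genes of injured and regenerating tubules were high, with a median of 148 TPM. Of 26 genes 25 (96.2%) were expressed, against 54.5% of all protein-coding nuclear genes. Havcr1 (kidney injury molecule), the phagocytic receptor of injured proximal cells, was at 379.8, 380.0 and 344 TPM. Lcn2 (neutrophil gelatinase-associated lipocalin), a secreted iron-siderophore binder, was at 595, 571 and 624 TPM, and Sox9, the factor of regenerating tubules, at 85.8, 95.1 and 101 TPM. Vcam1, an adhesion molecule of tubular cells that fail to repair, was far lower at 8.07, 8.83 and 7.84 TPM. The growth factor binding Igfbp7 stood at 1691 ± 22.3 TPM, Sox4, a progenitor factor, at 529 ± 4.44 TPM, Cd24a at 2617 ± 47.8 TPM and Clu at 4861 ± 173 TPM. Mmp7, a matrix protease of fibrotic tubules, was the single low member at 0.756, 1.19 and 1.55 TPM.

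Every one of the 25 proliferation genes was expressed, against 54.5% of all protein-coding nuclear genes. The cyclin Ccnd1 was at 1178, 1138 and 1088 TPM and made up 39.4% of the total, with 23.4% of its exon length shared with another gene. The proliferation antigen Mki67 was at 123, 113 and 93.8 TPM, and Top2a, which untangles chromosomes, at 139, 136 and 126 TPM. Replicate 3 was lowest for both. The mitotic kinase Cdk1 was at 67.1, 64.7 and 64.8 TPM and its cyclin Ccnb1 at 49.2, 45.7 and 52.5 TPM. The ribonucleotide reductase subunit Rrm2 was at 287 ± 13.3 TPM, the replication clamp Pcna at 144 ± 10.6 TPM and the helicase subunit Mcm6 at 118 ± 3.44 TPM. These levels fix no share of dividing cells.

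Energy metabolism genes stood in contrast to the proximal list. All 17 glycolysis genes were expressed, against 54.5% of all protein-coding nuclear genes, at a list median of 216 TPM. Hk2, the inducible hexokinase, was at 214, 217 and 217 TPM, 1.34 ± 0.0326-fold above Hk1. Pyruvate kinase Pkm was at 889 ± 13.6 TPM, with 15.3% of its exon length shared with another gene. Lactate dehydrogenase Ldha was at 686 ± 22.2 TPM and the glucose transporter Slc2a1 at 260.4 ± 8.01 TPM. Fatty acid oxidation enzymes, the main fuel pathway of the proximal tubule in vivo, were also expressed, at a median of 42.9 TPM. Here 16 of 17 genes (94.1%) were expressed, against the same 54.5%. The acyl-CoA dehydrogenase Acadl led at 406 ± 13.1 TPM and made up 42.1% of the total. Acadm was at 44.7 ± 2.87 TPM and Cpt1a, which commits fatty acids to the mitochondrion, at 15.7 ± 1.34 TPM. The regulators Ppara and Ppargc1a were lower, while the other 15 genes of the list, with the regulator Esrra among them, were at 10 TPM or more in each library. Ppara had 6, 2 and 4 counts, and its coactivator Ppargc1a was at 2.82, 4.42 and 4.17 TPM, lowest in replicate 1.

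Basement membrane genes were expressed for 17 of 20 members, against 54.5% of all protein-coding nuclear genes, with a list median of 93.5 TPM. The proteoglycan Agrn was the highest at 502, 476 and 541 TPM. Lama5, the main laminin alpha chain of mature tubules and glomeruli, was at 125 ± 10.1 TPM, and Lamb1 at 276 ± 6.79 TPM. Col4a3, which belongs to the collagen IV network of glomerular and distal tubular basement membranes, was at 253, 244 and 241 TPM, 1.29 ± 0.0335-fold the level of the ubiquitous Col4a1 (191 ± 9.04 TPM).

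Genes of stratified epithelium and urothelium were listed because the renal pelvis and papilla can be carried into whole-kidney digests. In the stratified list 12 of 24 genes (50.0%) were expressed and 10 were at the floor. Sfn, a cell cycle brake also induced by stress, was at 733, 728 and 771 TPM, the cornified envelope precursor Sprr1a at 443, 461 and 494 TPM and the desmosomal Perp at 349.8, 327 and 346 TPM. The basal keratins Krt14 and Krt15 had 0, 1 and 1 counts and 1, 7 and 0 counts, and Krt6a had 0, 3 and 0 counts. In the urothelial list 7 of 12 genes (58.3%) were expressed. Both shares were near the 54.5% of all protein-coding nuclear genes. Krt20, a keratin of umbrella cells, was at 129, 146 and 135 TPM and made up 67.0% of the total, followed by the surface antigen Psca (26.8 ± 5.13 TPM) and the factors Gata2 (21.3 ± 1.21 TPM) and Foxa1 (10.2 ± 0.0530 TPM). Of the 4 uroplakins that define umbrella cells, Upk1a was expressed, Upk2 was low and Upk1b and Upk3a were at the floor. Upk3a had 0 counts in every library, Upk2 0, 5 and 3 counts, Upk1b 2, 2 and 0 counts and Upk1a 8, 11 and 8 counts.

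**Figure D4:**
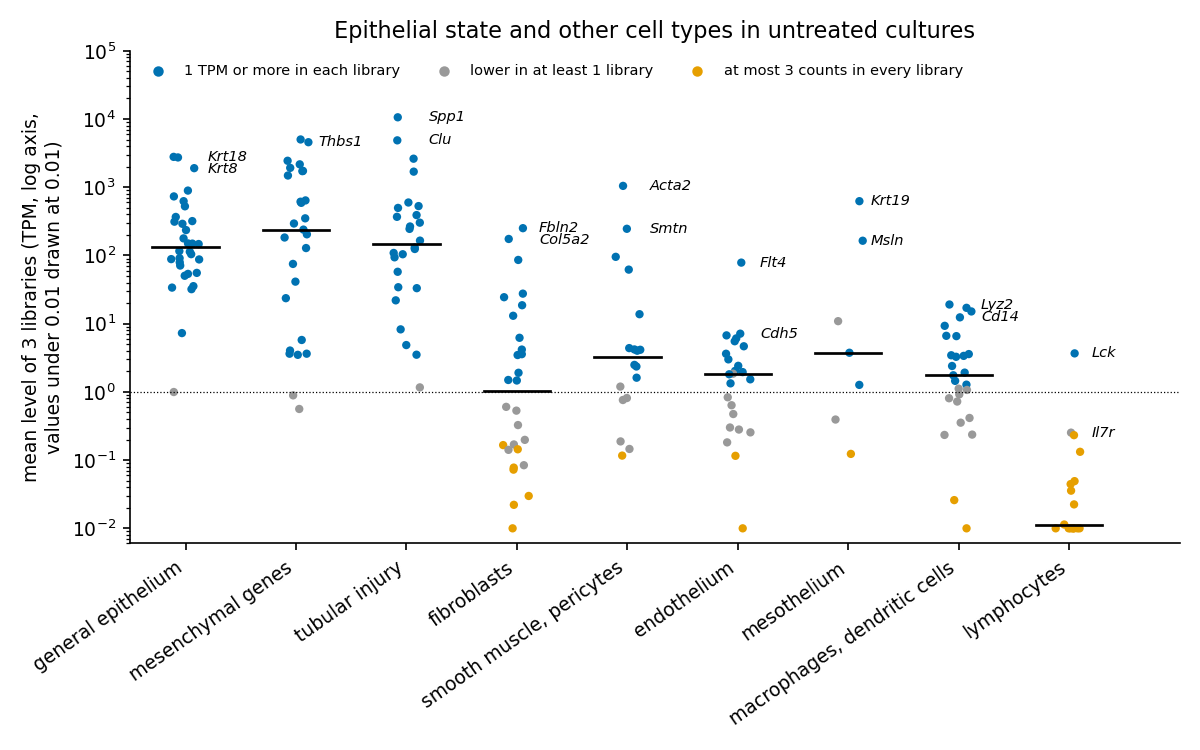
Mean level of 3 libraries in TPM (log axis; values under 0.01 drawn at 0.01) of every gene in 9 lists on epithelial state, stroma, endothelium and leukocytes, with colours and bars as for the nephron genes. General epithelium, mesenchymal and injury genes have medians above 100 TPM, and the fibroblast, endothelium and macrophage medians lie near 1 to 2 TPM, each with a few genes far above the median.

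Of 28 fibroblast genes 14 (50.0%) were expressed, near the 54.5% of all protein-coding nuclear genes, 7 were low and 7 at the floor, with a median of 1.04 TPM. The matrix glycoprotein Fbln2 was at 249, 247 and 257 TPM and the collagen chain Col5a2 at 177, 169.9 and 177 TPM. Col1a1, the main chain of collagen I, was at 84.9, 81.2 and 91.5 TPM, 3.52 ± 0.172-fold above its partner Col1a2. Col5a1 was at 27.5 ± 1.09 TPM and Loxl1, which crosslinks elastin, at 18.6 ± 1.14 TPM. Col3a1, abundant in kidney fibroblasts, was at 5.84, 6.34 and 6.43 TPM. The receptor Pdgfra, a defining gene of resident fibroblasts, was at 1.40, 1.62 and 1.47 TPM. The small proteoglycans Dcn and Lum had 2, 8 and 6 counts and 0, 1 and 5 counts. Thy1, a surface protein of fibroblasts and neurons, was at 1.26, 4.72 and 4.42 TPM and higher in replicates 2 and 3, where brain transcripts were found.

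Of 18 smooth muscle and pericyte genes 12 (66.7%) were expressed, against 54.5% of all protein-coding nuclear genes. Acta2 alone made up 70.2% of the list's total. Smoothelin, Smtn, was at 252, 243 and 242 TPM, the adhesion molecule Mcam at 93.9, 99.1 and 93.1 TPM and calponin, Cnn1, at 60.9, 59.9 and 65.0 TPM. Acta2 stood 16.9 ± 0.842-fold above Cnn1. Smooth muscle myosin heavy chain, Myh11, was low at 1.67, 0.778 and 1.14 TPM. The pericyte genes Rgs5 and Cspg4 were at 1.54, 3.39 and 2.14 TPM and 1.90, 1.61 and 1.34 TPM. Tagln was counted at 13.8 TPM, but 67.9% of its exon length is shared with another gene. Divided by the unshared length alone its level was 41.2 TPM.

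Mesothelial genes were read for the kidney capsule. Of 7 genes 4 (57.1%) were expressed, near the 54.5% of all protein-coding nuclear genes. Msln (mesothelin) was at 170.1, 159 and 163 TPM, while Upk3b was at 3.36, 4.37 and 3.52 TPM and Lrrn4 had 2, 2 and 2 counts. Krt19, also on this list, is shared with collecting duct and urothelium.

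Of 24 endothelial genes 14 (58.3%) were expressed, near the 54.5% of all protein-coding nuclear genes, and their median of 1.83 TPM was under the 3.25 TPM of those genes. The junction proteins Pecam1 and Cdh5 were at 3.42, 3.83 and 3.62 TPM and 7.81, 7.23 and 6.35 TPM, the growth factor receptor Kdr at 2.33, 2.29 and 2.61 TPM, and Tie1 was low at 1.10, 0.816 and 0.589 TPM. Epcam stood 203 ± 15.7-fold above Pecam1 and Krt18 770.2 ± 44.6-fold. Flt4, the receptor of lymphatic endothelium, stood apart at 79.6, 77.9 and 77.9 TPM, 21.7 ± 1.504-fold above Pecam1, and made up 59.8% of the total. Lyve1, a lymphatic endothelial marker, had 0 counts in all 3 libraries. The lymphatic factor Prox1 was at 5.52 ± 0.353 TPM, Emcn, a capillary sialomucin, at 6.73 ± 1.33 TPM and the TGF-beta coreceptor Eng at 6.08 ± 0.678 TPM.

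Of 27 macrophage and dendritic cell genes 16 (59.3%) were expressed, near the 54.5% of all protein-coding nuclear genes. Their median was 1.75 TPM, under the 3.25 TPM of those genes, and their total 114 ± 4.78 TPM. Lysozyme, Lyz2, was at 17.4, 19.7 and 20.1 TPM, the endotoxin coreceptor Cd14 at 16.8, 17.3 and 17.1 TPM and the lysosomal Cd68 at 14.6, 14.4 and 16.3 TPM. Cd14 and Cd68 also occur in epithelial cells. The complement gene C1qa, more restricted to macrophages, was at 8.03, 6.90 and 4.97 TPM, C1qb at 6.43, 6.79 and 6.46 TPM, and the macrophage antigen Adgre1 (F4/80) was low at 0.748, 1.43 and 0.575 TPM. In replicate 1, nearly free of brain transcripts, C1qa was at its highest and Csf1r at its lowest value. The cathepsin Ctss was lowest in replicate 1 at 8.92, 15.5 and 12.6 TPM.

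Lymphocyte genes were almost all at the floor. Of 17 genes 1 (5.88%) was expressed, against 54.5% of all protein-coding nuclear genes, and 15 were at the floor. Cd3e, Cd3d and Nkg7, of T and natural killer cells, had 0 counts in every library. The kinase gene Lck was the exception at 3.49, 4.54 and 2.97 TPM and made up 82.5% of the total. The pan-leukocyte gene Ptprc (CD45), from the myeloid list, had 52, 74 and 71 counts, or 0.764, 0.853 and 0.802 TPM.

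Granulocyte, red cell and platelet genes were at the floor for 11 of 17 members. Expressed were 2 (11.8%), against 54.5% of all protein-coding nuclear genes. The chemokine gene Ppbp, known from platelets, was the exception at 837, 848 and 996 TPM and made up 98.8% of the total. Pf4, the other abundant platelet chemokine, had 0, 3 and 4 counts. The neutrophil gene Ly6g was at 2.29, 2.24 and 1.76 TPM, while S100a8 had 2, 1 and 4 counts. The adult globin Hbb-bs was at 0, 4.67 and 14.8 TPM, absent in replicate 1.

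Brain transcripts separated replicate 1 from the other 2 libraries, so genes shared between kidney and brain were judged by replicate 1. Neuron list totals were 8.58, 81.2 and 61.5 TPM and glia totals 81.2, 180.2 and 158 TPM. At least 4-fold higher levels in both replicates 2 and 3 than in replicate 1, after adding 0.25 CPM, were found for 117 of 57010 genes (0.205%), and for 0 genes in the opposite direction. The count was 417 at 2-fold, 32 at 8-fold and 19 with 1 CPM added. Of the 117 genes 3 were expressed in all libraries. All 117 genes together summed to 15.9, 368 and 298 TPM, which is 0.0368% and 0.0298% of the total in replicates 2 and 3. Among the lists 18 neuron and glia entries met this rule, along with Gpm6a, a membrane glycoprotein of neurons and mesothelium (0.251, 16.9 and 15.5 TPM), and Hbb-bs. No gene of the nephron segment, endothelial or myeloid lists met it.

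The neuronal genes that met the rule encode synaptic, cytoskeletal and channel proteins. The 10 genes included Snap25 (0.0396, 6.74 and 4.54 TPM), Syt1 (0.323, 5.54 and 3.32 TPM), Slc17a7 (0.150, 4.27 and 3.03 TPM), Camk2a, Nrgn, Nefl, Syp, Stmn2 and Gria2. Each gene named here was at most 0.323 TPM in replicate 1. The 8 glial genes included Ttr, the transthyretin of choroid plexus and liver (0, 25.8 and 3.31 TPM), Slc1a2, Slc1a3, Mobp, Mt3, Cldn11 and Mag. Of these 8 genes Ttr had the widest gap between replicates 2 and 3. Rbfox3 and Gfap pointed the same way at 0.0926, 1.05 and 0.676 TPM and 0.511, 1.70 and 2.50 TPM without meeting the rule.

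Some genes of these lists were expressed in replicate 1 as well. The myelin genes Mbp and Cnp were at 41.2, 51.9 and 53.4 TPM and 30.6, 35.8 and 31.6 TPM, so most of their level was present in the library with the fewest brain transcripts. The microtubule-associated Map2 was at 3.78, 6.41 and 6.78 TPM, the enolase Eno2 at 1.37, 4.93 and 3.78 TPM and the aldolase Aldoc at 4.29, 8.28 and 9.70 TPM. Aqp4, a water channel of both astrocytes and principal cells, was at 1.68, 2.30 and 2.79 TPM, with its lowest value in replicate 1.

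**Figure D5:**
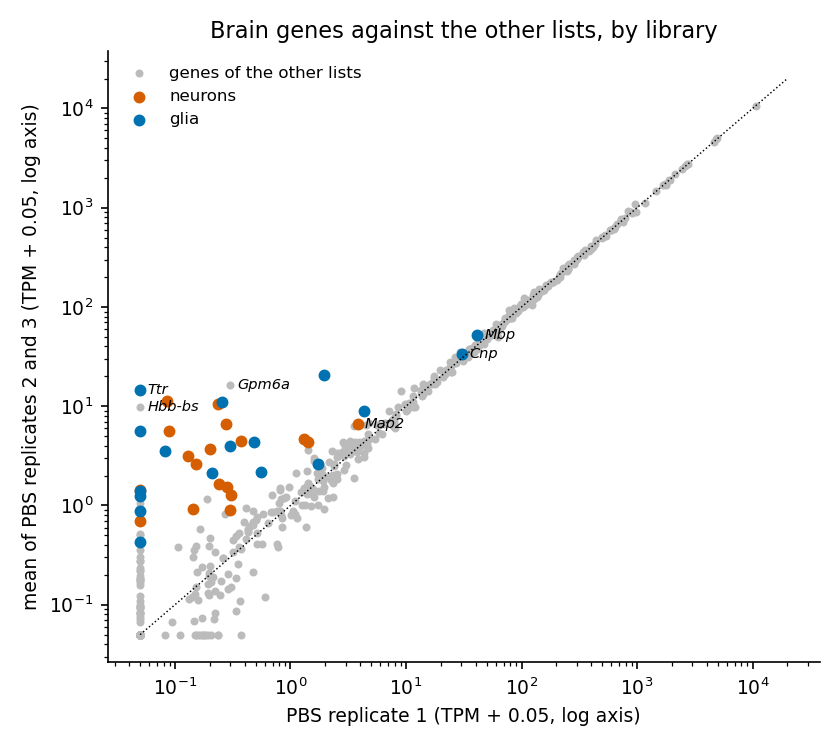
Level in PBS replicate 1 (horizontal) against the mean of PBS replicates 2 and 3 (vertical), both as TPM + 0.05 on log axes, for neuron genes (orange), glia genes (blue) and the genes of the other lists (grey). The dotted line marks equal levels, most neuron and glia genes lie far above it, and Mbp, Cnp and Map2 lie near it.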

How the data were processed

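RNA was measured in 3 PBS, 3 TNF and 3 TNF with ACHP libraries, and the PBS libraries are used here. Per the submitters' processing notes the authors used STAR, featureCounts and mm10. The authors deposited raw counts per Ensembl gene, made per the file headers by featureCounts 2.0.1 on Ensembl 109 for GRCm39, the build of all gene positions given. Of 553 list genes 95 overlap their interval on GRCm38, the build also called mm10, and 11 share its start, so the build in the header was used. Reads that fall in 2 genes are not counted at the settings in that header, which name neither strand nor multi-overlap, and 51 list entries share over 10% of exon length. Symbols were found for 52029 of 57010 identifiers, and rows without one held 0.302 to 0.576% of counts. No pair of libraries was close enough to be a copy (chi-square per degree of freedom 2.95 to 6.53).

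Counts were turned into TPM in Python 3.11.15 with pandas 2.3.3 and numpy 2.4.6, with the deposited exon length, and the steps were tested on simulated data. Mitochondrially encoded genes held 11.2 to 13.2% of TPM. With 1 group there is no contrast and no p-value. Alternatives were TMM factors (edgeR 4.0.16, R 4.3.3; 0.998 to 1.001), a total over protein-coding nuclear genes, thresholds of 0.5 and 5 TPM, thinning to the smallest library, summing shared symbols, leaving out each replicate, replicate 1 alone and, added after seeing the data, unshared exon length.

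Results for some genes that the rule below selects are not reported here. The lists and members were chosen with earlier results of these data known. Named genes are the 20 highest protein-coding nuclear genes other than ribosomal protein genes, the 8 markers, the 4 defining and up to 6 highest genes of each list, the 6 highest keratins and claudins, and list genes that follow the brain transcripts. Named after their values were seen were Ovol1, Cldn2, Cdh16, Hnf4g, Six2, Osr2, Eya1, Hoxa11, Hoxd11, Slc3a1, Scnn1b, Wt1, Twist1, Snai1, Snai2, Zeb1, Zeb2, Mmp7, Dcn, Lum, Lyve1, C1qb, Ptprc, Hk1, Eno2 and Aqp4. The same holds for Cldn10, Cldn14, Esrra and Twist2.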

Additional observations from a re-analysis of the deposited data

How the results depend on the processing

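No paired analysis was possible because the 3 PBS libraries form 1 group and no result comes from a test. With the level for an expressed gene raised to 5 TPM, fewer members passed in 17 lists: podocytes 3, proximal transport 4, proximal metabolism 3, loop of Henle 5, distal tubule 2, principal cells 7, intercalated cells 0, urothelium 4, fibroblasts 8, smooth muscle 5, endothelium 5, mesothelium 2, macrophages 6, lymphocytes 0, granulocytes with red cells and platelets 1, neurons 0 and glia 2. The other 10 lists stayed within 1.5 times of their count. Leaving out 1 replicate gave 3 to 14 expressed neuron genes and 5 to 14 glia genes, with 14 of each without replicate 1. The number of genes that follow the brain transcripts was 417 at a 2-fold rule, 32 at 8-fold and 19 with 1 CPM added. The count of expressed genes over the whole table stayed within 1.5 times in all 11 alternatives. Over all lists and alternatives 278 of 297 counts of expressed members did so. Summed levels of lists moved by more than 1 SD in 40 of 243 cases, 24 of them when only protein-coding nuclear genes entered the total. List medians did so in 55 of 243 cases, 18 of them with that total and 15 with replicate 1 alone. Levels of the 8 markers did so in 14 of 72 cases, 8 of them with that total and 5 with unshared exon length. TMM factors and summing shared symbols changed no member's call, thinning removed Spi1, unshared exon length removed Slc7a8, and leaving out replicate 1 added 27 entries. Depth limits genes near 1 TPM, which rest on fewer than 10 counts at 2 kb.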

Other observations

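The families in this section were chosen after their values were seen and are given as values only. Hox genes, which keep the record of a cell's position along the body axis, were expressed for 28 of 39 members. The share of all protein-coding nuclear genes that were expressed was 54.5%. Of paralogue groups 1 to 10, 27 of 30 were expressed, and of groups 11 to 13 it was 1 of 9, against the same 54.5%. The highest was Hoxb9 at 314, 321 and 302 TPM, followed by Hoxb7, Hoxb8 (141 ± 5.18 TPM) and Hoxb6 (136 ± 3.70 TPM), whose ranges overlapped. Hoxa11 and Hoxd11, which act in the metanephric mesenchyme, were low at 1.88, 1.11 and 0.633 TPM and 1.21, 0.902 and 1.03 TPM, while Hoxc11 was expressed at 2.66, 2.72 and 1.54 TPM.

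By symbol 26 integrin genes were read, with the integrin-like Itgbl1 among them and Itga2b and Itgad left out. Of these 26 genes 17 were expressed, against 54.5% of all protein-coding nuclear genes. After Itgb1 came the laminin-binding chain Itga3 at 898, 855 and 899 TPM and Itgav, the vitronectin-binding alpha chain, at 349.7 ± 15.7 TPM. The hemidesmosome pair Itgb4 and Itga6 stood at equal levels within the spread, at 145, 128 and 135 TPM and 141, 132 and 135 TPM. Sox factors were expressed for 9 of 19 genes, against 54.5% of all protein-coding nuclear genes. Sox4 was highest, then Sox9 and Sox11 (84.9, 93.7 and 92.8 TPM), whose values overlapped with those of Sox9. Placental cadherin Cdh3 was at 150.2, 152 and 142 TPM, below Cdh2 in every library.

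Outside the lists, the lipoprotein gene Apoe, which macrophages and astrocytes make, followed the brain transcripts at 3.27, 20.6 and 17.2 TPM, and Sparcl1, an astrocyte and vascular matrix gene, did so at 0.733, 21.4 and 21.3 TPM. Single list genes stood far from others of the same cell type, as given above for Ppbp without Pf4, Flt4 without Lyve1, Ass1 among metabolic genes and Trpm6 above Slc12a3. No reason for these was tested.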
